A study of Mus musculus with 9 samples.

Results

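The RAS-RAF-ERK cascade components described here are 41 genes for the adaptors, RAS proteins, RAS regulators, kinases and downstream kinases of the pathway. Their sites are the rows of the authors' deposited table, a list of sites (mm10) that differed between 4OHT and control cells, whose centre had one of these genes as its nearest protein-coding gene body, within 100 kb. That gave 61 of the 19165 listed sites, at 26 of the 41 genes. The other 15 genes had none: Gab2, Shc1, Ptpn11, Rasgrp2, Rasa1, Rasa3, Rasal2, Nf1, Hras, Rras, Map2k2, Mapk3, Mknk1, Mknk2 and Mapkapk2. Naming a site by its nearest gene does not say that it acts on that gene.

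The assay was ATAC-seq, which cuts and tags open chromatin with Tn5 transposase, and the cells were E14tg2a mouse embryonic stem cells (129SV background). All cells carried a stable cRAF-ErT2 cassette, a RAF kinase joined to an estrogen receptor domain that 4-hydroxytamoxifen (4OHT) activates, and the labels do not say whether the line is 1 clone. All had spent 24 h in serum, LIF and 250 nM PD173074, an FGF receptor inhibitor, after growth with 2 µM Chir99021, a GSK3 inhibitor. The 4OHT libraries came from cells given 250 nM 4OHT for 1 h (3 libraries) or 2 h (3 libraries), and the control libraries from untreated cells at 0 h (3 libraries).

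No vehicle-treated cells and no cells without the cassette are among these libraries, so what 4OHT or handling does by itself and what ERK does cannot be told apart. The table holds 1 mean level for the 4OHT side and 1 for the control side, as log2 normalized reads, and no value per library, so no spread between libraries can be given. The mean over all libraries equalled one weighted by 6 for 4OHT and 3 for control to within 0.00986 (log2), so 1 h and 2 h were taken as pooled and are not compared. Read depth per library is unknown. The mean level of the 61 sites over all libraries was 205 normalized reads at the median site, and the middle 50% of the sites lay between 96.3 and 324. In what follows, a change is the 4OHT level minus the control level on the log2 scale, and levels and FDR values are those of the authors' deposited table.

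Growth factor receptors signal through adaptors such as GRB2, which bring the exchange factor SOS to the membrane, where it loads RAS with GTP. GTPase-activating proteins switch RAS off again. GTP-bound RAS activates RAF kinases, which phosphorylate MEK, which phosphorylates ERK, and ERK in turn activates kinases such as RSK and MSK. In embryonic stem cells this pathway acts mainly downstream of FGF4 and is known for moving cells out of the naive state. Since 4OHT acts on the RAF fusion directly, receptor adaptors such as GRB2 and RAS itself lie upstream of the step that was switched on.

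Sites at genes of the cascade moved in both directions. Of the 61 sites, 40 were higher after 4OHT and 21 lower, which is 65.6% higher (exact Clopper-Pearson 95% interval 52.3 to 77.3%). Among all 16454 listed sites given to a coding gene 54.6% were higher and 45.4% lower, and among all listed sites 52.6% were higher and 47.4% lower. The rule takes listed sites only, so every site had already passed the authors' test and the counts say nothing of how many sites of these genes did not change. Ywhaz alone held 10 of the higher sites, and without it 30 of 51 were higher (58.8%), near the share over all genes. The interval treats sites as independent, which neighbouring sites of 1 gene are not.

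**Figure D1:**
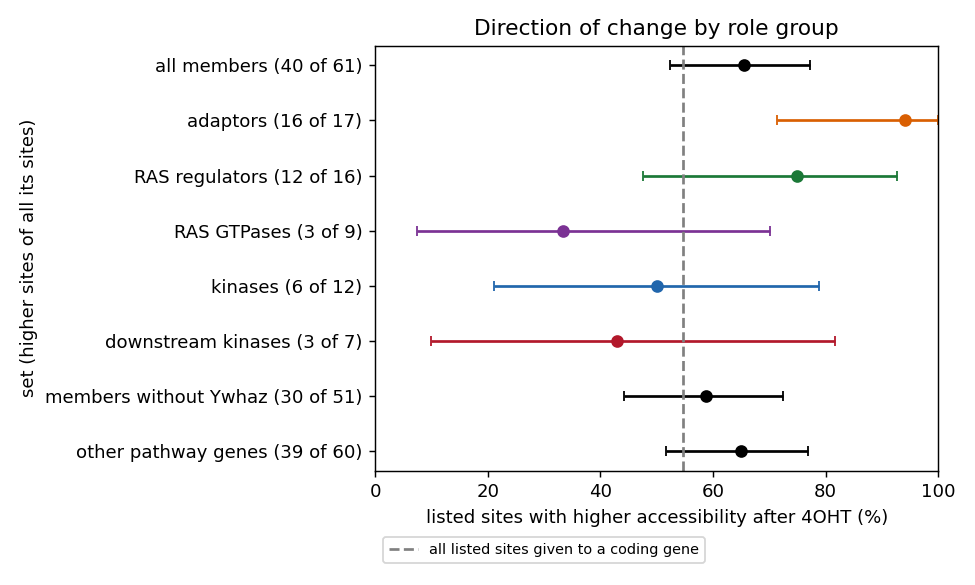
Share of listed sites with higher accessibility after 4OHT, in percent, for all members, for each role group, for the members without Ywhaz and for other genes of the pathway. Points are shares, bars exact Clopper-Pearson 95% intervals and the dashed line the 54.6% of all gene-assigned sites; adaptors lie highest at 94.1% and RAS GTPases lowest at 33.3%.

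Of the 26 genes with a site, 16 had higher sites alone, 4 had lower sites alone, and 6 had a mixture (61.5%, 15.4% and 23.1%, against 44.6%, 30.9% and 24.5% of the 7913 coding genes with a site). A mixture needs more than 1 site, and 10 of the 26 genes had a single one. Of the 16 with several, 8 had higher sites alone, 2 lower sites alone and 6 a mixture (37.5%, against 52.7% of coding genes with several). A listed site was present at 63.4% of the 41 genes, against 36.2% of the 21887 coding genes. Longer genes carry a site more often, and these genes are long: the median length was 89.5 kb for the members with a site and 41.3 kb for those without, against 17.2 kb for all coding genes. Among genes of 50 to 150 kb, 16 of 19 members (84.2%) and 64.0% of coding genes had a site. Above 150 kb the shares were 5 of 8 members (62.5%) and 83.4%, and below 50 kb 5 of 14 (35.7%) and 26.4%.

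The size of the changes was close to that of other genes. The median change was 1.345 at higher sites and -0.86 at lower sites, against 1.43 and -0.93 over all gene-assigned sites. A change of at least 1 in size was found at 31 of the 61 sites (50.8%) and at 60.3% of all gene-assigned sites, and one of at least 2 at 7 sites (11.5%) and at 11.5% of all. All 7 of these were higher, as were 99.4% of the changes of this size over all gene-assigned sites. Changes ran from 2.73 at Rasgrp1 to -1.64 at Map2k1.

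**Figure D2:**
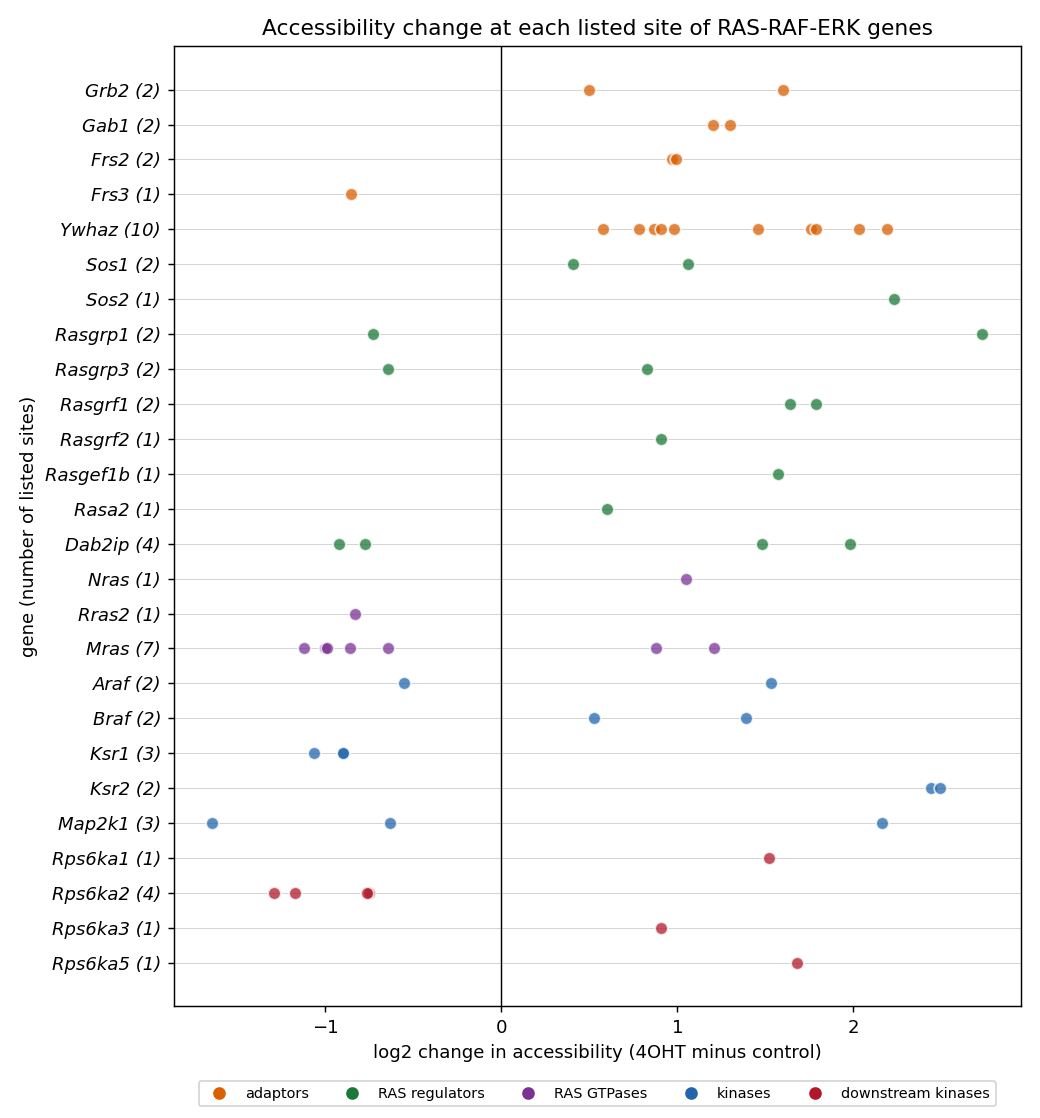
Change at each of the 61 sites, as the 4OHT minus the control level (log2, horizontal axis), by nearest gene with its number of sites (vertical axis), coloured by role group. Each point is 1 site; the 10 sites of Ywhaz lie between 0.58 and 2.19, the 4 sites of Rps6ka2 between -1.29 and -0.75, and Map2k1 and Dab2ip have points on both sides of 0.

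The adaptor group holds the genes of proteins that carry receptor signals to RAS together with Ywhaz, whose product binds RAF, and 10 of its 17 sites were at Ywhaz. Of the 8 adaptor genes, 5 had a site, and 16 of their 17 sites were higher (94.1%, against 54.6% of all gene-assigned sites), with a median change of 1.095 at the higher ones. Without Ywhaz 6 of 7 sites were higher. Grb2, Gab1 and Frs2 had 2 higher sites each, and the exception was Frs3.

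Ywhaz encodes the zeta form of the 14-3-3 proteins, which bind phosphorylated serines on RAF and many other partners. Its 10 sites, all higher, lay at and around the gene on chromosome 15 (36770261 to 36802984), with 4 inside it, 3 within 30 kb on one side and 3 at 75533 to 82463 bp from it on the other. The site with the smallest FDR, inside the gene at 36786314 to 36787001, had a level of 8.08 in 4OHT cells and 6.32 in control cells, a change of 1.76 (the authors' FDR 1.76e-08). A site 4051 bp outside the gene, at 36765916 to 36766504, changed by 2.03, at 8.08 in 4OHT cells and 6.05 in control cells (FDR 7.28e-06).

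The largest change at Ywhaz was 2.19, or 4.56-fold, at 36742720 to 36743150, with 6.20 in 4OHT cells and 4.01 in control cells (FDR 9.69e-04). This site lay 27326 bp outside the gene, and A830021M18Rik, which is not protein-coding, was nearer to it, at 11518 bp. The distant group on the other side held a site at 36883112 to 36883562 with a change of 1.79 (8.34 in 4OHT cells, 6.55 in control cells, FDR 6.21e-05). These 3 distant sites lie in or near the non-coding gene Gm10384, and their nearest coding gene was Ywhaz. The site inside Ywhaz at 36798299 to 36798471 also lies within a non-coding gene, Gm41298. Of all coding genes, 74 had 10 or more listed sites, and at 11 of these every site was higher and at none every site was lower.

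Grb2, the adaptor that carries SOS to receptors, was the only member, among those with a start in the RefSeq promoter table, with a listed site at a start. The site spans chromosome 11, 115699069 to 115699962, and its centre lies 19 bp downstream of one RefSeq start. Both the site and this start lie inside the gene body. The upstream end of the body, at 115708597, is 9082 bp from the centre of the site. The level of the site was 9.77 in 4OHT cells and 9.27 in control cells, a small change of 0.50 at an already open site (1.41-fold, FDR 0.00542). The stretch before this start is shown because it lies wholly within that site. It is RefSeq sequence (GRCm38.p6, chr11:115699535-115699784, minus strand), 250 bases, 57.2% G or C, in lower case throughout because none of the motifs searched occurs in it.

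Grb2: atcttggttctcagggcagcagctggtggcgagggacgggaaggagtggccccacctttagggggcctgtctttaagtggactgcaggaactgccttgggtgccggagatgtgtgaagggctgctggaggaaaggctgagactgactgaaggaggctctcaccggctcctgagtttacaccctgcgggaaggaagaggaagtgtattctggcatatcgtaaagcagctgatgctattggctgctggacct

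A second RefSeq start of Grb2 lies upstream, also inside the gene body, and 34 of the 250 bases before it fall in the same site. The other Grb2 site lay 6880 bp outside the gene, at 115636964 to 115637366, and changed more, by 1.60, with 8.13 in 4OHT cells and 6.53 in control cells (FDR 2.45e-04).

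Gab1, a docking protein for PI3K and the phosphatase SHP2, had both sites inside the gene on chromosome 8. They changed by 1.20 (8.68 in 4OHT cells, 7.48 in control cells, FDR 4.97e-04) and by 1.3 (6.68 in 4OHT cells, 5.38 in control cells, FDR 0.00120). Frs2 and Frs3 encode the docking proteins of FGF receptors, and their sites went opposite ways. The Frs2 sites, 18806 and 26279 bp outside the gene on chromosome 10, changed by 0.97 and 0.99 (FDR 6.27e-04 and 3.31e-04). The Frs3 site, 6215 bp outside the gene at chromosome 17, 47710147 to 47710856, changed by -0.85, with 8.25 in 4OHT cells and 9.10 in control cells (FDR 2.49e-04). Each of these sites had a gene that is not protein-coding nearer to it. This was 4930423D24Rik for Frs2, at 10345 and 2872 bp, and Gm46579 for Frs3, at 1113 bp.

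RAS regulators, which set how much RAS is bound to GTP, had 12 higher and 4 lower sites (75% higher, against 54.6% of all gene-assigned sites) at 9 of 14 genes. Exchange factors had 9 higher and 2 lower sites at 7 of 8 genes. Most of them switch RAS on, but Rasgrp2, which had no site, acts mainly on RAP1. Rasgef1b was placed with them by its RASGEF domain. GTPase-activating proteins, which switch RAS off, had 3 higher and 2 lower sites at 2 of 6 genes. Every site of Sos1, Sos2, Rasgrf1, Rasgrf2, Rasgef1b and Rasa2 was higher, and Rasgrp1, Rasgrp3 and Dab2ip had both directions.

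The largest gain at any member was upstream of Rasgrp1, an exchange factor that responds to diacylglycerol. This site, 3994 bp before the start at chromosome 2, 117346736 to 117347006, had 6.55 in 4OHT cells and 3.82 in control cells, a change of 2.73 or 6.63-fold (FDR 2.50e-06). That control level is 14.1 normalized reads, so this fold rests on few reads. A second site 1061 bp further out, at 117348068 to 117348724, changed the other way by -0.73, with 7.68 in 4OHT cells and 8.41 in control cells (FDR 0.00165). The gaining site was the less open of the pair in both conditions.

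Dab2ip, a GTPase-activating protein, had 4 sites inside the gene on chromosome 2, and their direction alternated along it. In order of position they changed by 1.98, -0.77, 1.48 and -0.92. The first, at 35591488 to 35591836, had 7.22 in 4OHT cells and 5.24 in control cells (FDR 1.64e-09). The third, at 35640464 to 35641128, had 7.99 in 4OHT cells and 6.51 in control cells (FDR 1.18e-06). Of the lower sites, that at 35613536 to 35614748 had 9.13 in 4OHT cells and 9.90 in control cells (FDR 6.24e-06), and that at 35696515 to 35697438 had 7.64 in 4OHT cells and 8.56 in control cells (FDR 0.00325). The lower sites were thus the wider and, in control cells, the more open ones.

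Sos1 and Sos2 are the exchange factors that GRB2 recruits. The Sos2 site, within the gene on chromosome 12 at 69607934 to 69608127, changed by 2.23, with 4.84 in 4OHT cells and 2.61 in control cells (FDR 5.35e-04). That control level is 6.11 normalized reads, the lowest of all 61 sites, so this fold rests on few reads. Control levels were also low, at 11.4 to 17.3 normalized reads, at sites of Rasgef1b, Ksr2, Rasgrp1, Rasgrf1 and Ywhaz. Sos1 held the smallest gain, 0.41, at the most open of the 61 sites, 16983 bp before its start on chromosome 17 (10.46 in 4OHT cells, 10.05 in control cells, FDR 0.00133), and a second site inside the gene changed by 1.06 (FDR 0.00574).

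Rasgrf1 and Rasgrf2 encode calcium-linked exchange factors known mainly from neurons. The Rasgrf1 sites changed by 1.64 (8.98 in 4OHT cells, 7.34 in control cells, FDR 3.21e-05) and 1.79 (5.73 in 4OHT cells, 3.94 in control cells, FDR 1.45e-04), but lay 77420 bp and 7771 bp outside the gene. The first was within the non-coding gene 4930524O08Rik, and Gm17944, which is not protein-coding, was nearer to the second, at 865 bp. The Rasgrf2 site, inside the gene, changed by 0.91 (FDR 0.00554). Single sites inside Rasgef1b and Rasa2 changed by 1.57 (FDR 0.00716) and 0.60 (FDR 0.00459). Rasgrp3 had a site at -0.64 (FDR 0.00913) and one at 0.83 (FDR 0.00407), both inside the gene.

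The 100 kb limit touched Rasa1, the p120 GTPase-activating protein. It was the nearest coding gene of 2 further sites at 153161 and 279418 bp, outside the rule, with changes of -0.93 and -1.40. The most distant sites within the rule were those of Ywhaz at 80353 and 82463 bp, with changes of 1.79 and 0.78.

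**Figure D3:**
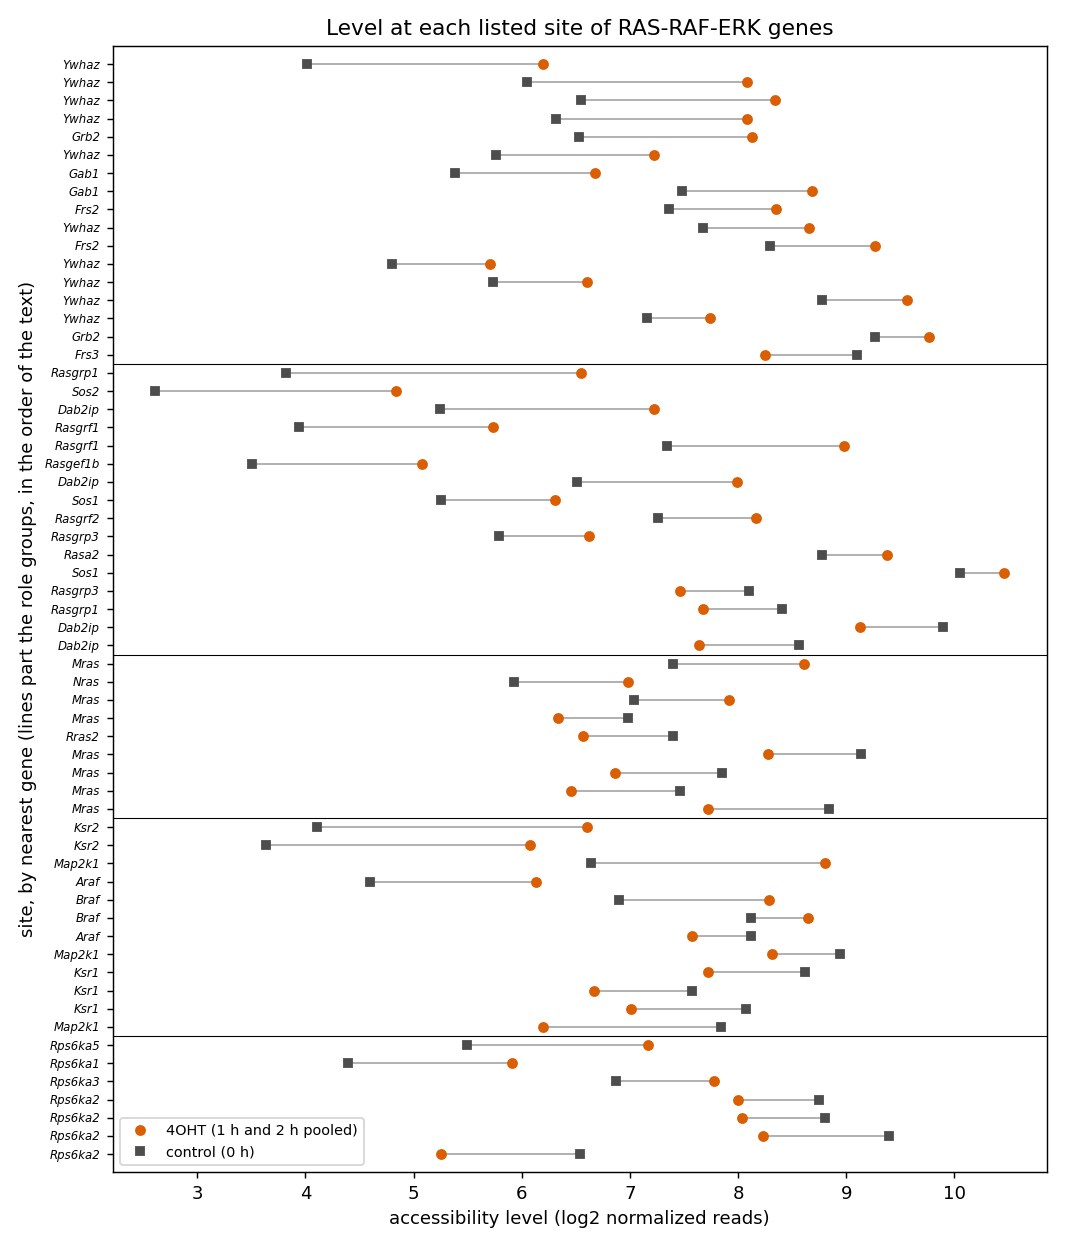
Accessibility level, in log2 normalized reads, at each of the 61 sites, with the 4OHT mean as a circle and the control mean as a square joined by a line, ordered by role group and change. The lowest control level is that of Sos2 at 2.61 and the highest that of Sos1 at 10.05; circles lie right of squares at 40 sites.

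RAS GTPases, the switch itself, had 3 higher and 6 lower sites at 3 of 5 genes (33.3% higher, against 54.6% of all gene-assigned sites). This count is mostly that of Mras, with 2 higher and 5 lower sites. MRAS is an R-Ras family GTPase that, with SHOC2, directs a phosphatase to RAF.

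Inside Mras, at chromosome 9, 99385420 to 99437700, a run of 4 lower sites followed 1 higher site. The lower site with the smallest FDR, at 99424124 to 99424654, had 7.72 in 4OHT cells and 8.84 in control cells, a change of -1.12 (FDR 1.40e-08). Those at 99403999 to 99404472 and 99415852 to 99416111 changed by -1 (6.46 in 4OHT cells, 7.46 in control cells, FDR 3.05e-06) and -0.99 (6.86 in 4OHT cells, 7.85 in control cells, FDR 5.16e-06). The remaining lower site inside the gene changed by -0.64 (FDR 0.00624) and the higher one by 0.88, with 7.92 in 4OHT cells and 7.04 in control cells (FDR 0.00265).

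Just upstream of Mras a pair of sites moved apart. The site at 99437526 to 99438563 was the only member site centred within 1 kb of an end of its gene. That is 1.64% of member sites, against 4.7% of all gene-assigned sites. The centre of this site lay 344 bp outside the gene and 1332 bp before the RefSeq start. The site itself overlaps the end of the gene body, at 99437700. It changed by -0.86, with 8.28 in 4OHT cells and 9.14 in control cells (FDR 3.10e-05). Only 383 bp beyond it, the site at 99438947 to 99439513 changed by 1.21, with 8.61 in 4OHT cells and 7.40 in control cells (FDR 3.45e-08). The order of the levels thus differed: the near site was the more open one in control cells, and the far one in 4OHT cells.

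Nras, a classical RAS gene, had 1 site, 2526 bp outside the gene at chromosome 3, 103070120 to 103070760, with 6.98 in 4OHT cells and 5.93 in control cells (change 1.05, FDR 0.00819). Rras2 had 1 site, within the gene on chromosome 7 at 114083910 to 114084321, with 6.57 in 4OHT cells and 7.40 in control cells (change -0.83, FDR 0.00472).

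The RAF, MEK and ERK kinases and their KSR scaffolds had 6 higher and 6 lower sites at 5 of 7 genes (50% higher, against 54.6% of all gene-assigned sites). The median change was 1.845 at the higher and -0.90 at the lower sites. Map2k1, which encodes MEK1, held both the smallest FDR of all 61 sites and the largest loss.

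At Map2k1, a site 3235 bp after the start, at chromosome 9, 64250197 to 64250543, had 8.80 in 4OHT cells and 6.64 in control cells, a change of 2.16 or 4.47-fold (FDR 6.38e-10). Deeper in the gene, 32730 bp after the start at 64220726 to 64221024, a site had 6.20 in 4OHT cells and 7.84 in control cells, a change of -1.64 or 3.12-fold lower (FDR 1.10e-08). Of all lower sites in the list, 97.8% had a loss of this size or smaller. A neighbour 351 bp away, at 64219653 to 64220374, changed by -0.63, with 8.31 in 4OHT cells and 8.94 in control cells (FDR 0.00129).

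The scaffold genes Ksr1 and Ksr2, whose proteins hold RAF, MEK and ERK together, moved in opposite directions. All 3 sites of Ksr1, inside the gene on chromosome 11, were lower. The one at 79138563 to 79139244 had 7.01 in 4OHT cells and 8.07 in control cells, a change of -1.06 (FDR 4.60e-04). That at 79128244 to 79128948 had 6.67 in 4OHT cells and 7.57 in control cells, a change of -0.90 (FDR 8.29e-04), and the last changed by -0.90 as well (FDR 0.00758).

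Both sites of Ksr2, inside the gene on chromosome 5, were higher. They changed by 2.49 at 117744776 to 117745187 (6.60 in 4OHT cells, 4.11 in control cells, FDR 3.65e-05) and by 2.44 at 117589329 to 117589669 (6.08 in 4OHT cells, 3.64 in control cells, FDR 1.37e-04). The Ksr2 sites were less open in control cells than any of the 3 Ksr1 sites, and in 4OHT cells all 5 lay between 6.08 and 7.72. The difference between these genes was not tested.

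Both sites of Braf were higher, by 0.53 inside the gene (8.65 in 4OHT cells, 8.12 in control cells, FDR 7.74e-04) and by 1.39 at 14098 bp outside it (FDR 0.00165). Araf had a lower site 3128 bp outside the gene (7.57 in 4OHT cells, 8.12 in control cells, change -0.55, FDR 0.00101) and a higher one at 36402 bp (change 1.53, FDR 0.00196). The RefSeq start of Araf used here was 53964 and 87238 bp from these sites. Gm39500, which is not protein-coding, was nearer to the higher site, at 14156 bp. Neither Map2k2 nor Mapk3, for MEK2 and ERK1, had a listed site.

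**Figure D4:**
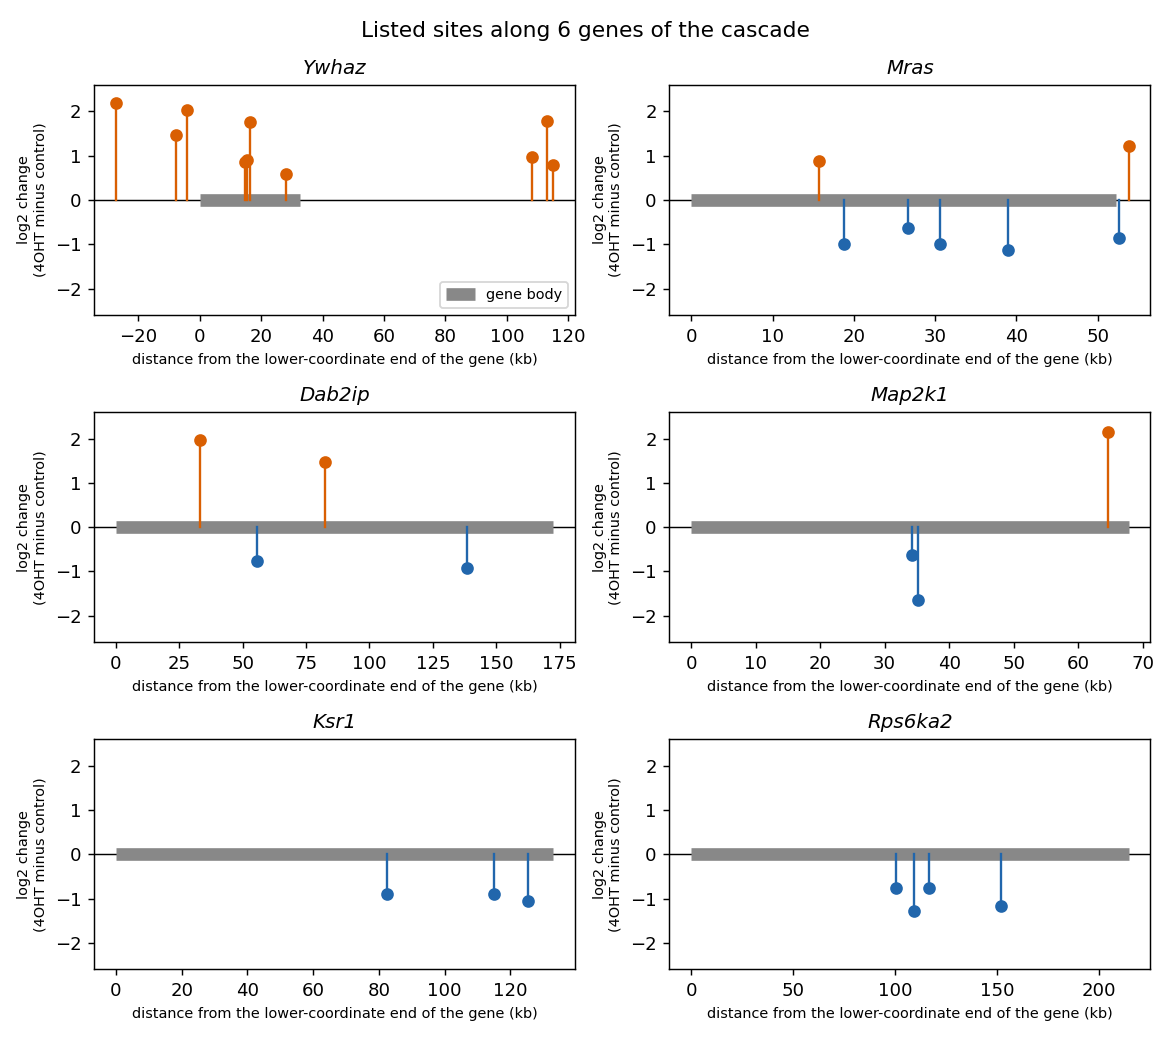
Listed sites along 6 genes, with distance from the lower-coordinate end of each gene in kb (horizontal axis) and the change as 4OHT minus control level (log2, vertical axis). Each stem is 1 site and the grey bar the gene body; the 10 stems of Ywhaz point up, the 3 of Ksr1 and 4 of Rps6ka2 point down, and those of Mras, Dab2ip and Map2k1 point both ways.

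The downstream kinases had 3 higher and 4 lower sites at 4 of 7 genes (42.9% higher, against 54.6% of all gene-assigned sites), and all the lower ones belonged to Rps6ka2. Of the 7 genes, Mapkapk2, for MK2, is best known downstream of p38, and it had no site. Rps6ka2 encodes RSK3, a p90 ribosomal S6 kinase. Its 4 sites lay inside the gene on chromosome 17, within the stretch from 7188459 to 7241514.

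The Rps6ka2 site with the smallest FDR, at 7240440 to 7241514, had 8.23 in 4OHT cells and 9.40 in control cells, a change of -1.17 (FDR 1.18e-05). The site at 7198046 to 7198481 changed by -1.29, with 5.25 in 4OHT cells and 6.54 in control cells (FDR 0.00160). The site at 7204842 to 7206091 changed by -0.76, with 8.04 in 4OHT cells and 8.80 in control cells (FDR 2.42e-04), and the fourth by -0.75 (FDR 0.00921). Sites at the other 3 genes, 1 each, were higher.

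Rps6ka5, for MSK1, a kinase of histone H3 and CREB, had its site within the gene, on chromosome 12 at 100645563 to 100645870, with 7.17 in 4OHT cells and 5.49 in control cells (change 1.68, FDR 1.04e-05). Rps6ka3, for RSK2, had one within the gene, 1657 bp from the gene's lower-coordinate end. It lay on chromosome X at 159257219 to 159257425, with 7.78 in 4OHT cells and 6.87 in control cells (change 0.91, FDR 2.73e-05). Rps6ka1, for RSK1, had one 3900 bp outside the gene at chromosome 4, 133843293 to 133843487, with 5.91 in 4OHT cells and 4.39 in control cells (change 1.52, FDR 0.00579).

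Where a RefSeq start was available, most member sites had their centres away from it, and the nearest was a Grb2 site. For the 50 sites whose gene has a start in the RefSeq promoter table, 1 lay within 1 kb of a start (2.00%, against 3.16% of all gene-assigned sites), 9 at 1 to 10 kb, 28 at 10 to 50 kb and 12 beyond. The median distance was 25871 bp, against 30343 bp for all. Inside the body of their gene were 39 of the 61 sites (63.9%), against 57.3% of all gene-assigned sites. Exons, introns and UTRs cannot be told apart with the gene table used.

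Of the sites inside the gene body, 22 of 39 were higher (56.4%, against 58.4% of all gene-assigned sites inside genes). Outside it 18 of 22 were higher (81.8%, against 49.6%), and 12 of 16 without Ywhaz (75%). The split was chosen after the values were seen and has no test.

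Higher sites started from a lower level than lower sites, as over the whole list. At higher sites the median level was 7.85 in 4OHT cells and 6.415 in control cells, and at lower sites 7.64 in 4OHT cells and 8.41 in control cells. Over all gene-assigned sites these medians were 7.07 and 5.51 at higher sites and 6.96 and 7.88 at lower sites, in 4OHT and control cells. The median width was 421.5 bp at higher and 682 bp at lower member sites, against 412 and 554 bp over all gene-assigned sites, and at RAS GTPase genes it was 567 bp at higher and 445.5 bp at lower sites.

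Neighbouring sites of 1 gene often moved together. Of 35 pairs of consecutive sites, 26 had the same direction (74.3%, against 64.3% of 8541 such pairs over all genes). Ywhaz gave 9 of these, and without it 17 of 26 pairs did (65.4%). Of the 10 pairs less than 5 kb apart 7 had the same direction, or 2 of 5 without Ywhaz, against 80.5% over all genes. The 3 close pairs that moved apart were the pair upstream of Mras, one inside Mras and the pair upstream of Rasgrp1. Of the 16 members with several sites, 6 had both directions (37.5%), against 52.7% of coding genes with several sites.

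RefSeq promoter sequences were at hand for 37 of the 41 genes (51 start windows), all but Gab2, Mapk3, Rps6ka3 and Ywhaz. In the 250 bases before a start, on both strands, the ETS motif CCGGAAGT was found in windows of Frs2 and Nf1, the AP-1 motif TGANTCA in Ksr1 and Shc1, the cAMP response element TGACGTCA in Braf and Ptpn11, and the CArG box of SRF in Mknk2. That is 3.92% of member windows for each of the first 3 motifs and 1.96% for the CArG box, against 2.88%, 6.75%, 1.55% and 1.47% of 32841 windows of all genes. None of these windows overlaps a listed site of its gene, and a match is only a match of letters.

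Other genes of the pathway, 57 in all and not among the members, gave a like picture. They had 39 higher and 21 lower sites (65% higher, against 54.6% of all gene-assigned sites) at 30 genes. RAS effectors and RAP genes had 11 higher and 3 lower sites, and the genes of the ERK-regulated ETS factors Elk3, Elk4, Ets1 and Ets2 had 9 higher and 1 lower. Other core cascade genes had 5 higher and 2 lower sites, other RAS regulators 2 and 2, and other downstream kinases 0 and 3. Adaptors outside the members had 12 higher and 10 lower, so the near-uniform direction of the member adaptors was not seen there, although this difference was not tested.

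Within that list, Ywhaq, for another form of the 14-3-3 proteins, had 6 lower sites and 1 higher site, where Ywhaz had 10 higher. All the Ywhaq sites lay outside the gene, at 1455 to 45795 bp, and the non-coding gene Gm4419 was nearer to each. The higher Ywhaq site changed by 2.71, with 7.08 in 4OHT cells and 4.37 in control cells (FDR 4.43e-08). The lower one with the smallest FDR changed by -0.78, with 8.08 in 4OHT cells and 8.86 in control cells (FDR 2.62e-06).

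Map3k8, a kinase that acts on MEK, had 2 higher sites inside the gene, the one with the smaller FDR at 6.99 in 4OHT cells and 4.63 in control cells (change 2.36, FDR 1.25e-08). A site inside Cnksr3, a scaffold gene, changed by 2.30 (FDR 1.30e-06), and one 13172 bp outside Iqgap1, also a scaffold gene, by 1.73 (FDR 1.72e-05). Both sites inside Iqgap1 were lower, with changes of -0.95 and -0.64 (FDR 0.00454 and 0.00760). Among lower sites, those inside Grap2, an adaptor gene, and Rasa4, a GTPase-activating protein gene, changed by -0.92 (FDR 9.41e-05) and -0.78 (FDR 5.59e-04). The other 3 sites of Grap2 were higher. A site 59970 bp outside Ets1, whose other 2 sites were higher, changed by -1.33, with 4.36 in 4OHT cells and 5.69 in control cells (FDR 0.00168). That site lies within the non-coding gene Gm3331.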

How the data were processed

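The 9 ATAC-seq libraries were processed by the submitters. Their processing notes name Bowtie2, MACS2 and bedtools and the build mm10, and the sources used here give neither the differential test nor the read filtering, Tn5 offset or normalization. Per the file headers, the authors' deposited table has log2 mean normalized reads per side, a log2 fold, a p-value and an FDR for each site. Nothing was refitted. The authors' fold runs control minus 4OHT, and with its sign turned it equalled the change used here to within 0.01. Libraries A, B and C are not said to be separate cultures, so the authors' p-values may measure technical spread, and since the descriptions tag B and C as B2 and B, these may repeat 1 replicate.

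Each site centre was given to the nearest of 21887 protein-coding gene bodies (RefSeq, GRCm38.p6, the assembly that mm10 names), ties going to the shorter gene. The assignment was tested on simulated intervals. The members, role groups and lists were chosen with earlier results of these data known, and no set test was made. Every member with a site was named. Full values went to the 3 sites per group and direction with the smallest FDR, the 5 largest changes per direction and sites within 1 kb of a gene end, and of the other pathway genes the 4 sites with the smallest FDR per direction, 1 per gene, were named. Some genes of that list are not reported here. Other sites and genes were named after their values were seen. Alternatives were stricter limits on FDR or change, other distances, 1 site per gene, the members without Ywhaz and, added after seeing the data, the nearest gene of any biotype. Software was Python 3.11.15 with scipy 1.17.1, numpy 2.4.6, pandas 2.3.3 and matplotlib 3.10.9. Columns of other samples numbered 0.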

Additional observations from a re-analysis of the deposited data

How the results depend on the processing

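The share of higher member sites (65.6%) was between 56.4% and 69.1% with an FDR under 0.001, other distances, without Ywhaz or with the nearest gene of any biotype, and 76.9% with 1 site per gene. With changes of at least 1 it was 80.6% (69.2% over all gene-assigned sites at the same limit), where 25 of 40 gains and 6 of 21 losses were left, and the medians became 1.64 and -1.145. With an FDR under 0.001 the median of higher sites was 1.76. Regulator sites were 100% higher with changes of at least 1 and with 1 site per gene, and adaptor sites 100% with changes of at least 1, inside gene bodies and with the nearest gene of any biotype, from 7 to 9 sites each. With 1 site per gene the lower sites of Rasgrp1, Rasgrp3 and Dab2ip were not among those kept. The regulator share at that setting therefore depends on which site of a gene was kept. For 1 site per gene no share over all genes is given, so the values at that setting have none to be set against. Role groups hold 7 to 17 sites, so their shares are loosely bounded. No paired analysis was possible because the table holds 1 mean per side and no value per library, and leaving out a library was not run for the same reason.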
